A study of Mus musculus with 18 samples.

Results

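The comparison described here is that of mature (CCR7+) XCR1+ dendritic cells (DCs) from the thymus of mice that lack the type I interferon receptor chain IFNAR1 with the same cells from wild-type mice. It rests on 6 of the 18 arrays of the study, 3 for each genotype, and on all genes of the array rather than on a chosen few. Each gene was read from 1 probeset. Genes on the X and Y chromosomes were left out of counts after the fit, which gave 19187 of 19938 genes. The study sorted XCR1+ DCs from mouse thymus at 2 stages and hybridised amplified RNA to Affymetrix whole-transcript arrays. All mice were untreated and of the B6 strain. The group CTRL was wild type and kept under specific pathogen-free (SPF) conditions, the group Ifnar1-KO lacked Ifnar1 and was also kept SPF, and the group GF was wild type and germ-free. Mature cells were sorted as CD11c+, MHC class II+, XCR1+, CD8a+ and CCR7+, and as negative for CD11b, CD172a and CD117. Immature cells were CD117+ and CCR7-, with the other markers alike, and 3 arrays of each background were made for each stage. Whether replicate arrays stem from different animals is not stated in the labels. The p-values thus reflect array-to-array spread alone, which may be technical. The Ifnar1-KO label carries no cell type restriction, so the mice lacked the receptor chain outside DCs too, as far as the labels tell.

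XCR1+ DCs take up dying cells and present their antigens, in the thymus to developing T cells, where this contributes to tolerance. In steady state they mature without infection, gain CCR7, and lose many genes of the immature cell. IFNAR1 pairs with IFNAR2 to form the only receptor for the type I interferons. The receptor acts through the kinases JAK1 and TYK2 and through transcription factors, IRF9 among them, that bind interferon-stimulated response elements in the promoters of antiviral and immune genes. Type II interferon uses a separate receptor and acts through gamma-activated sites, and many genes answer to both.

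Few genes differed between the genotypes in mature cells. With limma on log2 intensities and Benjamini-Hochberg adjustment, 2 of 19187 genes (0.0104%) passed an adjusted p of 0.05. Adgre5, which encodes the adhesion receptor CD97, was higher in Ifnar1-KO cells by 0.88 ± 0.13 (SE, n = 3 arrays per group), and Gpc1, a heparan sulfate proteoglycan anchored to the cell surface, was lower by 0.61. The adjustment ran over all 19938 genes, those on X and Y included. With adjustment over autosomal genes alone, 0 genes passed. The interferon-stimulated gene Ifi27l2a lay lower on all Ifnar1-KO arrays, by 0.77 in mature cells, where it did not pass the test in this fit, and it passed when both stages were averaged. The typical interferon-stimulated genes, however, were not lower as a group in mature cells: of 62 such genes, 41 had a difference above 0 and 21 one below. An unadjusted p under 0.05 was reached by 563 genes (2.93%), 308 higher (1.61%) and 255 lower (1.33%). A difference of at least 1 on the log2 scale, which is a doubling, was seen for 22 genes higher in Ifnar1-KO (0.115%) and 2 lower (0.0104%). The median SE of a difference was 0.13, and for 94.9% of genes the 95% interval lay within 1 on either side of 0.

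**Figure D1:**
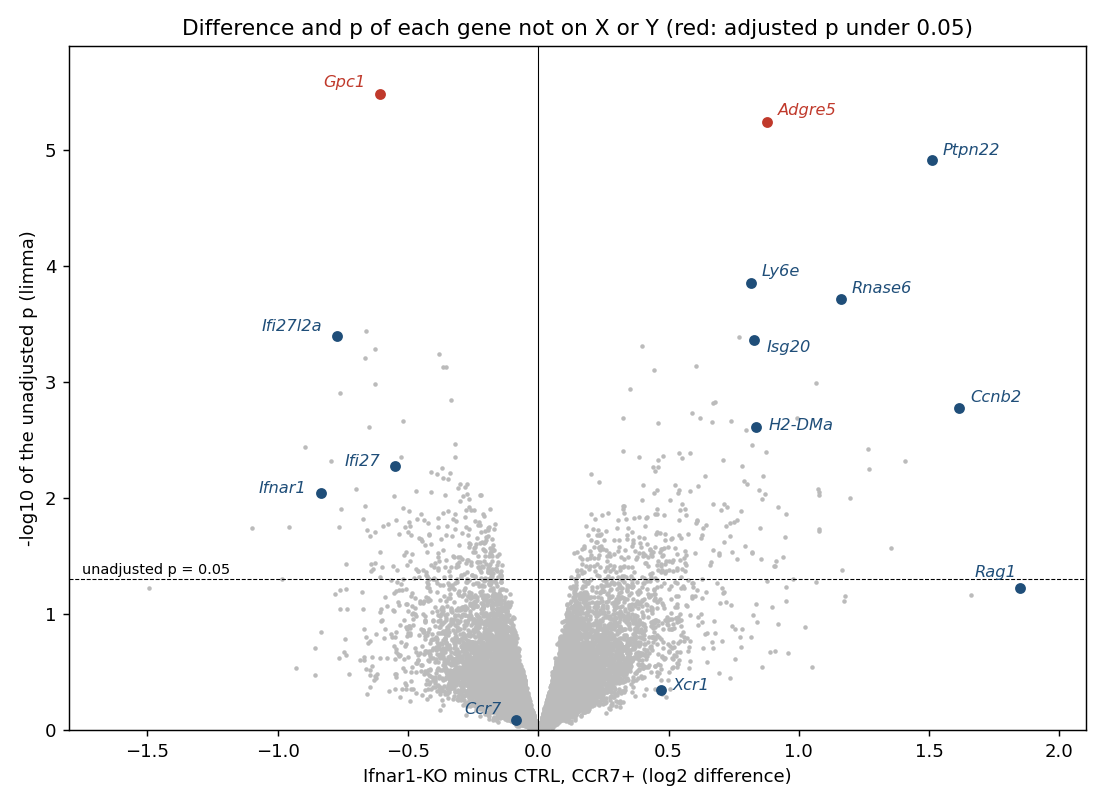
Difference between Ifnar1-KO and CTRL in CCR7+ cells (x axis, log2) against the -log10 of its unadjusted limma p (y axis), 1 point per gene over 19187 genes, 3 arrays per group; the dashed line is an unadjusted p of 0.05. The 2 red points, Adgre5 to the right and Gpc1 to the left, are the genes past an adjusted p of 0.05, and the points with the largest differences, such as Rag1 and Ccnb2, lie lower on the y axis.

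The arrays themselves were examined first. The probeset of Ifnar1 read 7.61, 7.82 and 7.72 on the CTRL arrays and 7.61, 6.07 and 6.96 on the Ifnar1-KO arrays, in the order of replicates 1 to 3. The groups touched, because Ifnar1-KO replicate 1 read as the lowest CTRL array, and the difference of -0.83 ± 0.28 did not pass the test (adjusted p = 1, limma). The sources used here name neither the exons under the probeset nor the disrupted part of the gene, and this reading therefore does not check the labels. Of 130 measured genes within 10 Mb of Ifnar1, 0 passed limma's adjusted test and their median difference was 0.01. Ccr7 was 11.88 to 12.04 in CTRL and 11.79 to 12.03 in Ifnar1-KO cells, and Itgam, which encodes the CD11b used for exclusion, stayed at 3.72 to 3.92 on these 6 arrays. Genes of olfactory receptors, taken as silent here, had medians of 3.42 to 3.50 and a 95th percentile of 4.41 to 4.50, which marks the level below which a reading is near background.

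Some features varied among the arrays and touch several results below. The mean of 25 thymocyte genes was 5.37, 7.61 and 5.67 on the Ifnar1-KO arrays against 5.91, 5.31 and 5.97 in CTRL, so replicate 2 was far above the rest. Rag1, needed for antigen receptor rearrangement in thymocytes, read 10.31 there and 6.02 and 7.51 on the other Ifnar1-KO arrays. In sorted bulk RNA, more cells of a type and more RNA per cell cannot be told apart. XCR1+ DC identity genes fall during maturation. The mean of 28, any on X or Y included, was 7.93, 7.25 and 8.26 in Ifnar1-KO against 7.46 to 7.58 in CTRL. Ifnar1-KO replicates 1 and 3 were thus high. The GF arrays read 7.47, 8.0 and 7.49, so GF replicate 2 was high as well. Xcr1 itself read 7.37, 4.89 and 8.36 in Ifnar1-KO against 6.30 to 6.48 in CTRL. Lastly, sex-linked genes differed between the groups: Eif2s3y on the Y chromosome read 3.34 to 3.49 in CTRL, 6.35 to 7.84 in Ifnar1-KO and 8.07 to 8.76 in GF cells, while Xist read 7.80 to 9.34, 6.14 to 8.38 and 3.80 to 4.37. The Ifnar1-KO readings of both genes lay above background, and genotype and the sex make-up of the samples cannot be told apart in the comparison with CTRL.

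Ifi27l2a, a small interferon-induced protein of the FAM14 family, was the type I interferon-stimulated gene with the clearest lower level. In mature cells it read 11.92, 11.88 and 11.88 on the CTRL arrays, 11.06, 11.42 and 10.88 on the Ifnar1-KO arrays, and 11.79, 11.98 and 12.18 on the GF arrays. All Ifnar1-KO arrays lay below all CTRL and all GF arrays, a pattern that 140 genes (0.73%) shared in this direction. The difference from CTRL was -0.77 ± 0.17 (95% interval -1.13 to -0.41, a 1.71-fold lower level), with an unadjusted p of 0.000399 and an adjusted p of 0.715 in limma. In immature cells Ifi27l2a read 11.47, 11.77 and 11.71 in CTRL and 10.34, 10.93 and 10.33 in Ifnar1-KO, again without overlap, and the difference was -1.12 ± 0.17 (limma adjusted p = 0.0665). Averaged over both stages, with arrays of one background and replicate number as a block, Ifi27l2a was the 1 gene that passed (0.00521% of genes), at -0.94 ± 0.12 and a limma adjusted p of 0.0107; 678 genes (3.53%) had an unadjusted p under 0.05 there. The test of a difference between the stages gave an unadjusted p of 0.171. Ifi27, a neighbour and relative of Ifi27l2a on chromosome 12, read 7.76, 8.02 and 7.62 in CTRL and 7.21, 7.57 and 6.97 in Ifnar1-KO mature cells. It lay below CTRL without overlap, by -0.55 ± 0.17 (unadjusted p = 0.00529, adjusted p = 1, limma), and by -0.51 in immature cells (unadjusted p = 0.00885). Against GF, whose mature cells read 7.84, 8.29 and 8.51, Ifi27 was lower by 0.96 (unadjusted p = 4.59e-05). Of the 62 genes, Ifi27l2a and Ifi27 were the 2 that lay lower at an unadjusted p under 0.05 in both stages. The share of all genes that did so was not counted, so the number is a description of the list alone.

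**Figure D2:**
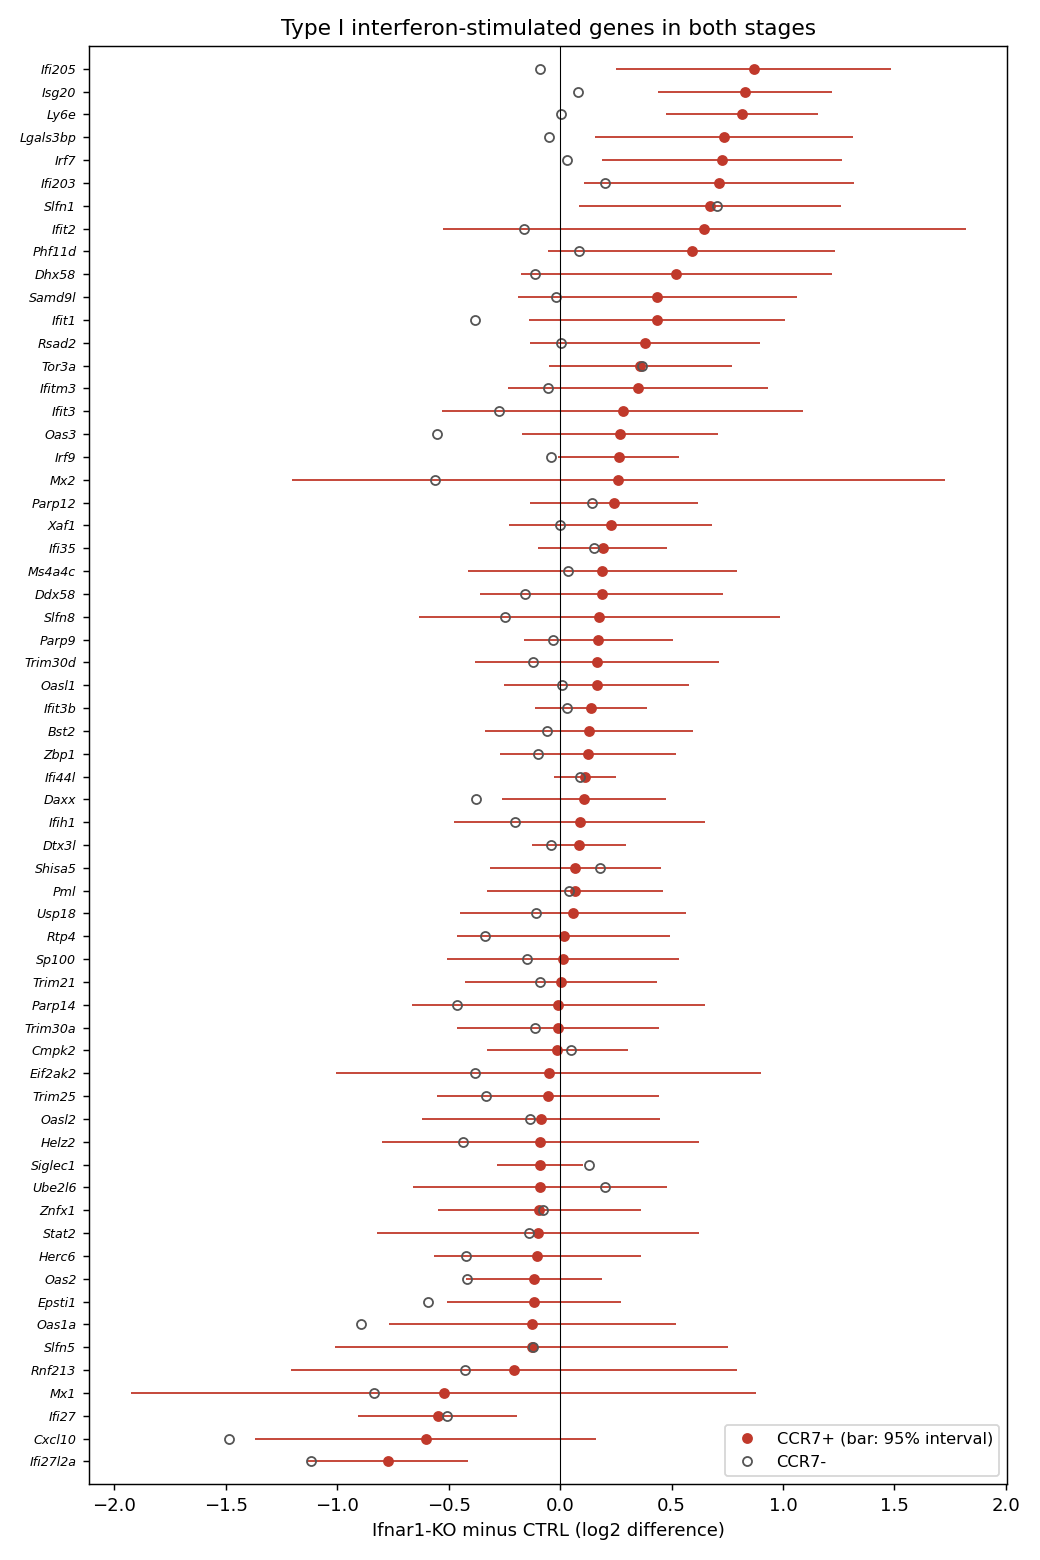
Ifnar1-KO minus CTRL for 62 type I interferon-stimulated genes, sorted, with CCR7+ differences as filled points with 95% intervals and CCR7- differences as open circles (x axis, log2 difference; 3 arrays per group). Ifi27l2a lies at the low end in both stages, Ly6e and Isg20 lie at the high end in CCR7+ cells, and most CCR7+ intervals include 0.

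The other type I interferon-stimulated genes did not read lower as a group. None of the 62 passed limma's adjusted test. At an unadjusted p under 0.05, 7 were higher and 2 lower, against 1.61% and 1.33% of all genes. The median difference of the 62 was 0.12 against 0.0015 over all genes. For 55 of the 62 the 95% interval lay wholly above -1, so a fall to less than the wild-type level divided by 2 is outside those intervals. Ifit1, an antiviral RNA-binding protein and a standard marker of the response, read 7.71, 6.37 and 7.03 in CTRL and 7.51, 7.31 and 7.59 in Ifnar1-KO cells (difference 0.43 ± 0.27, unadjusted p = 0.127, limma). The groups overlapped. Rsad2, Usp18 and Stat2, also named for their place in the pathway and not for their values, differed by 0.38, 0.06 and -0.10. Ly6e, a lipid-anchored membrane protein induced by interferon, read 11.17, 10.69 and 11.19 in CTRL and 11.93, 11.71 and 11.87 in Ifnar1-KO cells. These groups did not overlap, but the difference of 0.82 ± 0.16 did not pass (unadjusted p = 0.00014, adjusted p = 0.465, limma). Ifi205, of the interferon-inducible PYHIN family, read 8.99, 8.93 and 9.15 in CTRL and 10.34, 9.06 and 10.27 in Ifnar1-KO cells, so that replicate 2 lay with CTRL (difference 0.87, unadjusted p = 0.00913). Irf7, the factor that amplifies interferon production, read 9.08, 7.98 and 9.17 against 9.89, 9.21 and 9.32 (difference 0.73, unadjusted p = 0.012).

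The level of the list varied among the Ifnar1-KO arrays. The mean of the 62 genes was 7.82, 7.58 and 7.76 in CTRL, 8.23, 7.40 and 7.97 in Ifnar1-KO and 7.71, 7.84 and 7.62 in GF cells, and the order of the Ifnar1-KO arrays put the thymocyte-rich replicate 2 lowest. Without Ifnar1-KO replicate 2 the median difference was 0.35, with 56 genes higher and 6 lower and 20 higher at an unadjusted p under 0.05 (263 of all 19187 genes were). Without Ifnar1-KO replicate 1 it was -0.03, with 30 higher and 32 lower and 2 in each direction at an unadjusted p under 0.05 (648 higher and 371 lower over all genes). With the thymocyte level of each array as a covariate it was 0.23. The part of the thymocyte and identity genes in these readings was not tested beyond these fits. In no setting was the list lower as a group in mature cells by more than 0.03.

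In immature cells the same list leaned the other way. The median difference there was -0.10, with 43 genes lower and 19 higher, and 8 lower and 1 higher at an unadjusted p under 0.05, against 417 (2.17%) and 917 (4.78%) of all genes. The list mean was 7.95, 8.14 and 8.11 in CTRL, 7.95, 7.77 and 7.97 in Ifnar1-KO and 8.15, 7.79 and 7.89 in GF immature cells. The 3 groups thus overlapped. Ifnar1-KO replicate 2, the lowest array, had a thymocyte gene mean of 5.43, the highest of the immature arrays. This lean was not refitted without single immature arrays. Cxcl10, a chemokine that recruits CXCR3+ T cells, read 7.49, 7.98 and 8.17 in CTRL and 6.71, 5.96 and 6.51 in Ifnar1-KO immature cells (difference -1.48 ± 0.36, unadjusted p = 0.00093, limma). In mature cells Cxcl10 read 6.93, 7.64 and 6.43 against 6.62, 5.89 and 6.67, with overlap, a difference of -0.60 and an unadjusted p of 0.114. Oas1a, an RNA sensor of the antiviral OAS family, differed by -0.89 in immature cells (unadjusted p = 0.00998) and by -0.13 in mature cells (unadjusted p = 0.684). For neither gene was the difference between the stages past an unadjusted p of 0.05 (0.103 and 0.0924).

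Promoter sequences are shown for 4 genes chosen for different reasons, none of which passed the adjusted test in mature cells. Capitals mark the core of the interferon-stimulated response element (GAAA, any 2 bases, GAAA) on either strand. Each window runs from 250 bases before to 50 bases after the gene start in RefSeq (GRCm38.p6) and is written 5′ to 3′ on the gene's strand. A core on the opposite strand therefore reads as TTTC, 2 bases and TTTC. Ifit1 is the standard marker, Cxcl10 was lower in immature cells, Ifi205 was higher on replicates 1 and 3 of Ifnar1-KO mature cells, and Rnase6 is the 1 gene with the core among the 13 that have a window of the 20 ranked below. Another annotated start of Rnase6 has a window with 0 cores.
Ifit1 promoter, chr19:34640639-34640938, plus strand: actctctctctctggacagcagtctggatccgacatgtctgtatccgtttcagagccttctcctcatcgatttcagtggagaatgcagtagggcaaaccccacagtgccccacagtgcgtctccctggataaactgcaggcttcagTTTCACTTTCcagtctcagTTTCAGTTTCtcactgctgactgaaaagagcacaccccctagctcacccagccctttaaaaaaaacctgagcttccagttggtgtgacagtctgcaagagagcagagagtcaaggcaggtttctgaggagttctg
Cxcl10 promoter, chr5:92348840-92349139, minus strand: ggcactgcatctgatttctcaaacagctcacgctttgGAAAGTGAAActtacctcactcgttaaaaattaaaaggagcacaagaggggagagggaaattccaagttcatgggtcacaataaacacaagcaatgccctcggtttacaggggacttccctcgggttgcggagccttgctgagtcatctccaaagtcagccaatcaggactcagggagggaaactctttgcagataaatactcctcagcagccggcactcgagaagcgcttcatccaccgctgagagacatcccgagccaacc
Ifi205 promoter, chr1:174031706-174032005, minus strand: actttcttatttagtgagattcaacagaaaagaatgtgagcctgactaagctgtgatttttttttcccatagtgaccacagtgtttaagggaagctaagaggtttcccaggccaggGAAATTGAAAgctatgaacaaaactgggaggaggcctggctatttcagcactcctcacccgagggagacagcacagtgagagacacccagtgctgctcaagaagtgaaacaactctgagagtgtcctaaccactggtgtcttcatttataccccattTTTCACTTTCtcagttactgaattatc
Rnase6 promoter, chr14:51128787-51129086, plus strand: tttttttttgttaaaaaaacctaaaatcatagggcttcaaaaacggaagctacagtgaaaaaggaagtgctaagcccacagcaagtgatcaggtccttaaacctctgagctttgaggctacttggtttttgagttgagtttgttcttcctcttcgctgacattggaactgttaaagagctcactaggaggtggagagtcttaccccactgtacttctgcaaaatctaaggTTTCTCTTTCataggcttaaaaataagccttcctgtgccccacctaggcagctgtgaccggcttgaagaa
The core was found in 23 of 63 windows of the type I list (36.5%; 21 of 48 genes with a window) and in 627 of 19177 windows over all genes (3.27%). The type II list had it in 5 of 13 windows (38.5%). The gamma-activated site (TTC, any 3 bases, GAA), also sought on both strands, was found in 8 of the 63 type I windows (12.7%), 4 of the 13 type II windows (30.8%) and 7.66% of all windows. Type I list members with the core had a median difference of 0.14 in mature and -0.12 in immature cells. The 27 members whose window lacked it had medians of 0.11 and -0.02. A match is a description of the letters and not a mapped binding site. Ifit1 with 2 cores and Cxcl10 with 1 thus both carry the letters, and in mature cells the difference was above 0 for the first and below 0 for the second, neither past the test.

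Genes of the type II response and of interferon signalling showed no call either. Of 18 type II genes 10 had a difference above 0 and 8 below, with a median of 0.07, and 2 were higher at an unadjusted p under 0.05 (1.61% of all genes were). Cxcl9, a chemokine induced mainly by type II interferon, read 8.59, 8.45 and 8.14 in CTRL and 9.71, 8.89 and 9.82 in Ifnar1-KO cells (difference 1.08 ± 0.36, unadjusted p = 0.00933, adjusted p = 1, limma). GF cells read 9.30, 9.98 and 7.97 for Cxcl9 and overlapped both groups. Gbp3, a guanylate-binding protein of cell-autonomous defence, differed by 0.74 ± 0.20 (unadjusted p = 0.00214). Of 33 signalling genes 21 lay higher and 12 lower, with a median of 0.02. Ifnar2, the partner chain, read 9.68, 9.62 and 9.34 in CTRL and 9.39, 9.61 and 9.67 in Ifnar1-KO cells, with full overlap.

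Adgre5 was the gene called higher. CD97, its product, is an adhesion G protein-coupled receptor that binds CD55 on neighbouring cells. It read 7.77, 7.75 and 7.34 in CTRL, 8.29, 8.60 and 8.60 in Ifnar1-KO and 7.57, 7.78 and 7.76 in GF mature cells. All Ifnar1-KO arrays lay above all other CCR7+ arrays, a pattern shared by 110 genes (0.573%). The difference was 0.88 ± 0.13 (95% interval 0.61 to 1.15, 1.84-fold, limma adjusted p = 0.0381). Adgre5 falls during maturation: immature CTRL cells read 10.14, 10.02 and 10.04 and immature Ifnar1-KO cells 9.92, 9.81 and 10.01, with a difference of -0.16 (unadjusted p = 0.239). From immature to mature cells it changed by -2.45 in CTRL, -1.42 in Ifnar1-KO and -2.24 in GF. The Ifnar1-KO difference between the stages was 1.03 ± 0.18 (unadjusted p = 4.2e-05), and its adjusted p over all genes was 0.837. With the thymocyte level of each array as a covariate the Adgre5 difference was 0.86 (limma adjusted p = 0.106). The part that the differing levels of identity and sex-linked genes on these arrays have in it was not tested.

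Gpc1 was the gene called lower. Glypican 1 is a glycosylphosphatidylinositol-anchored heparan sulfate proteoglycan that binds growth factors and chemokines. It read 6.34, 6.29 and 6.37 in CTRL, 5.83, 5.67 and 5.68 in Ifnar1-KO and 6.21, 6.25 and 5.99 in GF mature cells. Again all Ifnar1-KO arrays stood apart, below every other CCR7+ array. The difference was -0.61 ± 0.08 (95% interval -0.78 to -0.43, 1.52-fold lower, limma adjusted p = 0.0325). Gpc1 is a gene of the mature stage: immature cells read 4.49, 4.58 and 4.70 in CTRL and 4.67, 4.59 and 4.56 in Ifnar1-KO, close to the level of silent genes, with a difference of 0.02 (unadjusted p = 0.858). The difference between the stages had an unadjusted p of 0.000102, in a test that no gene passed after adjustment. The other adhesion receptors of the CD97 class and the other glypicans, a list built around Adgre5 and Gpc1, held no further call; over the 21 genes measured the median difference was -0.03.

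Both calls stood near the threshold. Each had an adjusted p of 0.0549 when the adjustment covered autosomal genes alone, and each lost its call when only the 6 arrays compared were fitted (adjusted p of 1 for Adgre5 and 0.985 for Gpc1). Leaving out any 1 array other than Ifnar1-KO replicate 1 also ended the call, while the size stayed at 0.74 to 0.98 for Adgre5 and -0.66 to -0.58 for Gpc1. The titles of some arrays end in an r of unstated meaning, and with it as a covariate neither gene passed. Among arrays with the r (Ifnar1-KO replicates 2 and 3, CTRL replicate 1) Adgre5 differed by 0.84, Gpc1 by -0.67 and Ifi27l2a by -0.77. Among those without it (Ifnar1-KO replicate 1, CTRL replicates 2 and 3) they differed by 0.74, -0.50 and -0.82.

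Ptpn22 had the largest difference of the genes nearest to a call. Its product is a phosphatase that restrains antigen receptor signalling and shapes myeloid cell responses. It read 5.04, 5.12 and 4.96 in CTRL, 6.35, 6.53 and 6.77 in Ifnar1-KO and 4.63, 5.79 and 5.28 in GF mature cells. All Ifnar1-KO arrays lay above the others, by 1.51 ± 0.23 over CTRL (95% interval 1.01 to 2.01, 2.85-fold, limma adjusted p = 0.0606). The difference in immature cells was -0.04, and that between the stages had an unadjusted p of 0.00031, in a test that no gene passed after adjustment. Ptpn22 passed with array weights or when only genes at or above the median level were tested.

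**Figure D3:**
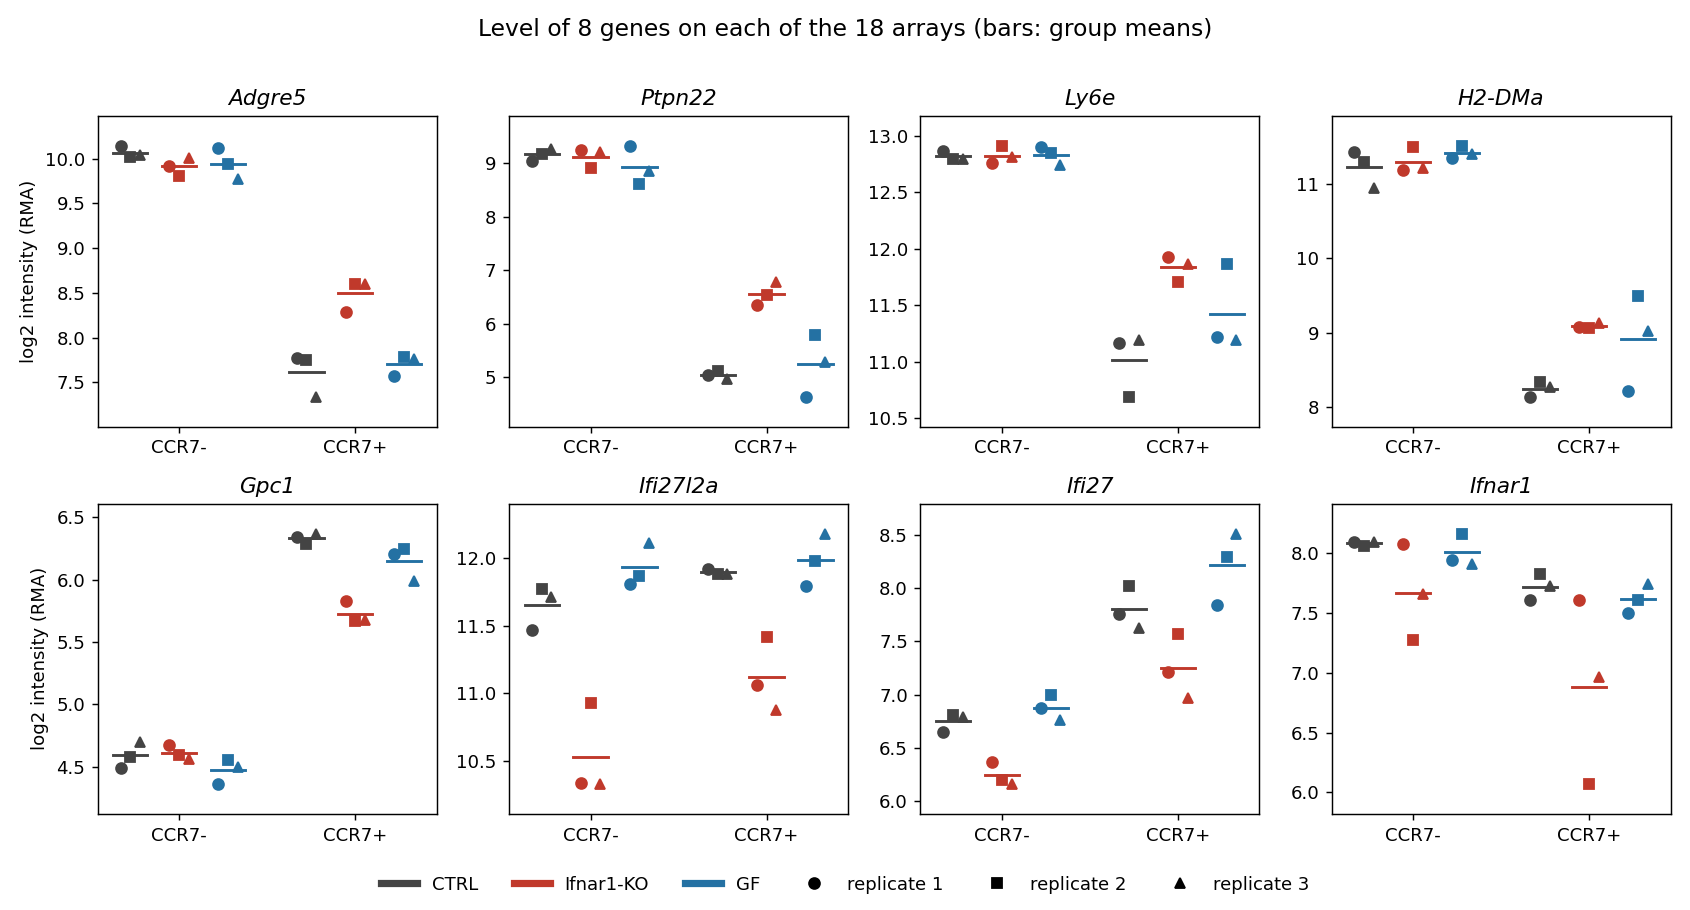
Log2 intensity (y axis) of 8 genes on all 18 arrays, by stage and background (x axis), with 1 symbol per replicate number and a bar at each group mean. Adgre5 and Ptpn22 lie higher and Gpc1 lies lower on all 3 CCR7+ Ifnar1-KO arrays, Ifi27l2a lies lower on all Ifnar1-KO arrays of both stages, and H2-DMa is high on 2 of 3 GF arrays too.

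Of the 20 genes with the smallest p, 10 in each direction, 18 did not pass, with limma adjusted p up to 0.93 for the higher and 0.982 for the lower ones. The groups did not overlap for any of the 20, a property of 1323 genes in all (6.9%) that goes with the small p by which they were ranked. The higher genes after Adgre5, Ptpn22 and Ly6e were Rnase6, an RNase A family ribonuclease (1.16), Capg, an actin-capping protein (0.77), Isg20, an interferon-induced exonuclease (0.83), the splicing factor U2af1 (0.40), the mitochondrial DNA helicase Twnk (0.61), Taldo1 of the pentose phosphate pathway (0.44) and Pclaf, which binds the replication clamp PCNA (1.07). Rnase6 read 7.81, 6.88 and 7.53 in CTRL and 8.51, 8.24 and 8.96 in Ifnar1-KO cells, against 11.23, 10.99 and 10.94 in immature CTRL cells. Isg20 read 6.97, 6.86 and 6.65 against 7.82, 7.81 and 7.34 (unadjusted p = 0.00043). All 3 Ifnar1-KO arrays were thus above CTRL for both genes, and for Rnase6 all mature arrays were far below the immature ones.

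The lower genes after Gpc1 and Ifi27l2a were Dscaml1, a cell adhesion molecule (-0.66), Psd3, an exchange factor for the GTPase ARF6 (-0.63), the potassium channel Kcna2 (-0.38), the transporter Abca17 (-0.66), the survival protein Bcl2l2 (-0.35), the matrix protein Ecm1 (-0.36), the zinc finger gene Zfp945 (-0.63) and the lipid droplet gene Tmem159 (-0.76). Zfp945 read 6.17, 6.08 and 5.86 in CTRL, 5.62, 5.48 and 5.12 in Ifnar1-KO and 6.07, 5.59 and 6.24 in GF cells. Tmem159 read 5.22, 5.08 and 5.22, then 4.82, 4.32 and 4.10, then 5.04, 5.28 and 5.15, so that the Ifnar1-KO arrays lay below both other groups. Its lowest readings were at the silent level, and the size of the difference is limited by background. Ecm1 showed another pattern, with 5.01, 5.06 and 5.02 in CTRL, 4.53, 4.89 and 4.58 in Ifnar1-KO and 4.52 to 4.56 in GF cells, where CTRL was the group apart. Capg, Twnk and Abca17 also had readings near the silent level.

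The ranked genes were set beside those that maturation moves. Maturation was taken from the GF arrays, which do not enter the difference of Ifnar1-KO from CTRL. They do enter the spread per gene that underlies both the ranking and the maturation calls. The counts among the ranked genes are therefore no independent comparison, and the shares of all genes include silent genes. Among the 10 higher genes 8 were called lower and 1 higher in mature than in immature GF cells, where 11.9% of all genes were called lower. Among the 10 lower genes 7 were called higher and 0 lower, where 9.65% of all genes were called higher. Maturation in GF cells called 4135 genes (21.6%). Over all 1200 genes (6.25%) that were called lower by at least 1 there, the median Ifnar1-KO difference was 0.15, with 908 higher and 292 lower. That is 75.7% higher, against 50.6% of all genes. Their groups did not overlap for 113 genes higher (9.42%) and 16 lower (1.33%), against 687 (3.58%) and 636 (3.31%) of all genes. Over 898 genes (4.68%) called higher by at least 1 with maturation the median was -0.08, with 299 higher and 599 lower. The mean level of the genes lost with maturation was 5.97, 5.96 and 5.85 on the CTRL arrays, 5.97, 6.13 and 6.21 on the Ifnar1-KO arrays and 5.91, 6.13 and 6.01 on the GF arrays. The lowest Ifnar1-KO array (5.971) was barely above the highest CTRL array (5.968), and the GF range overlapped both. Leaving out 1 Ifnar1-KO array left the median at 0.10 to 0.22. For the lost genes 103 were higher and 2 lower at an unadjusted p under 0.05, against 308 (1.61%) and 255 (1.33%) of all genes. The median of the genes gained with maturation was -0.01 without Ifnar1-KO replicate 2 and -0.12 without replicate 1.

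Genes of antigen presentation by MHC class II were examined next. Of 17 measured, 0 passed limma's adjusted test, 13 lay higher and 4 lower, and 5 were higher at an unadjusted p under 0.05 (1.61% of all genes were), with a median of 0.14. Without Ifnar1-KO replicate 1 that number was 2 (648 over all genes) and the median 0.06. H2-DMa, a chain of the exchange factor that loads peptides, read 8.14, 8.34 and 8.27 in CTRL and 9.08, 9.06 and 9.13 in Ifnar1-KO cells (difference 0.84 ± 0.23, unadjusted p = 0.00242, adjusted p = 1, limma). The groups were far apart, but GF cells read 8.21, 9.50 and 9.03. H2-Ob, a chain of the loading inhibitor, read 7.30, 6.49 and 6.27 against 7.97, 7.49 and 7.34 (difference 0.91, unadjusted p = 0.0344), and its partner H2-Oa differed by 0.49. Ciita, the activator of class II transcription, read 5.69, 5.63 and 5.77 against 6.43, 5.57 and 6.44, with replicate 2 in the CTRL range. The class II chains H2-Aa and H2-Ab1 differed by 0.13 and 0.15, with intervals that include 0. Of 17 MHC class I genes 10 lay higher and 7 lower, with a median of 0.02.

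Cell cycle genes, which fall with maturation, also had more differences above 0 than below. Of 39 measured, 32 lay higher and 7 lower, 6 of them higher at an unadjusted p under 0.05 (1.61% of all genes were) and 0 called by limma, with a median of 0.20. Without Ifnar1-KO replicate 1 there were 12 higher at an unadjusted p under 0.05 (648 over all genes), and the median was 0.11 to 0.33 without 1 array. The median of the list was 0.16 for GF minus CTRL and 0.09 for Ifnar1-KO minus GF. By mean level Ifnar1-KO replicate 1 (5.50) lay within the CTRL range of 5.29 to 5.63. Ccnb2, a mitotic cyclin, read 5.28, 5.0 and 5.09 in CTRL and 5.44, 7.88 and 6.91 in Ifnar1-KO cells (difference 1.62 ± 0.42, unadjusted p = 0.00165, limma). The lowest Ifnar1-KO array was close to CTRL, and the highest was replicate 2 with its high thymocyte genes. Birc5, an inhibitor of apoptosis that acts in mitosis, read 5.79, 5.38 and 5.27 against 6.0, 6.42 and 6.01 (difference 0.67), and was lower in Ifnar1-KO than in GF by 0.63. With the thymocyte level as a covariate 33 genes lay higher and 6 lower. Thymocytes divide too, and the part of their transcripts in these readings was not tested beyond that fit.

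**Figure D4:**
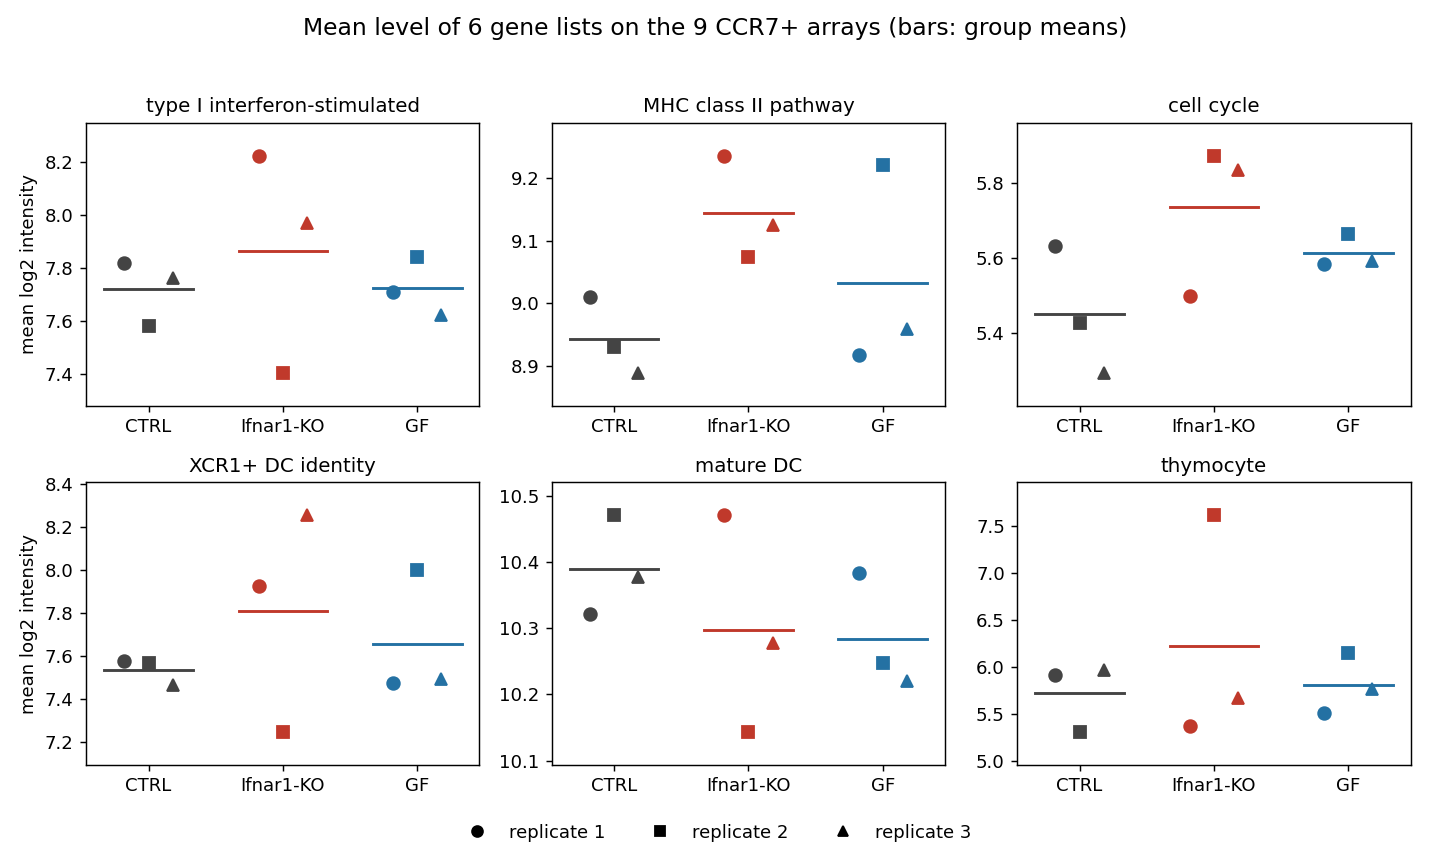
Mean log2 intensity (y axis) of 6 gene lists on the 9 CCR7+ arrays, by background (x axis), with 1 point per array. Thymocyte genes are high on Ifnar1-KO replicate 2 at 7.61, and XCR1+ DC identity genes are highest on Ifnar1-KO replicate 3 at 8.26 and lowest on replicate 2 at 7.25.

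Identity and maturation genes of the DC showed the same split among arrays. Of 27 XCR1+ DC identity genes 20 lay higher and 7 lower, with a median of 0.27 and 6 higher at an unadjusted p under 0.05 (1.61% of all genes were). Itgae, which encodes CD103, read 5.98, 5.80 and 5.71 in CTRL and 7.01, 5.89 and 8.07 in Ifnar1-KO cells, and GF replicate 2 was high as well at 7.93. Wdfy4, needed for cross-presentation, read 6.91, 6.93 and 6.43 against 7.86, 6.71 and 8.51 (difference 0.94, unadjusted p = 0.032). Replicates 1 and 3 were high for both genes and replicate 2 was not. Without replicate 3 the median of the list was -0.04. Without replicate 2 it was 0.41, with 12 genes higher at an unadjusted p under 0.05 (263 of all 19187 genes were). Of 38 mature DC genes 10 lay higher and 28 lower, with a median of -0.07. Without Ifnar1-KO replicate 2 the counts turned to 22 higher and 16 lower, with a median of 0.01, and without replicate 1 they were 5 and 33, with a median of -0.15. Ptgs2, the inducible prostaglandin synthase, read 8.88, 9.34 and 8.57 in CTRL and 8.53, 8.06 and 8.21 in Ifnar1-KO cells (difference -0.67 ± 0.23, unadjusted p = 0.0117, limma), and Stat4, a factor downstream of interleukin 12, read 10.30, 10.55 and 9.85 against 9.75, 9.80 and 9.96.

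Of 24 costimulatory and inhibitory ligands and receptors 10 lay higher and 14 lower, with a median of -0.06. Without Ifnar1-KO replicate 2 this turned to 15 and 9, with a median of 0.05, and with the thymocyte covariate to 14 and 10. Cd70, the ligand of CD27 on T cells, read 7.93, 8.20 and 7.02 in CTRL and 7.32, 7.20 and 6.69 in Ifnar1-KO cells, with overlap (difference -0.65 ± 0.25, unadjusted p = 0.0213, limma). Lgals9, which encodes galectin 9, read 7.72, 7.32 and 8.29 against 8.46, 8.24 and 8.65 (difference 0.67). Havcr2, the receptor TIM-3, read 5.62, 5.46 and 5.33 against 6.64, 5.46 and 7.03, again with replicate 2 in the CTRL range.

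Against immature cells and germ-free cells the comparison was placed as follows. In immature cells 0 of 19187 genes (0%) passed limma for Ifnar1-KO minus CTRL, with 1334 at an unadjusted p under 0.05 (6.95%). The smallest adjusted p there was 0.0574, for Klra5, a receptor of the Ly49 family, which read 4.72, 4.56 and 4.40 in CTRL and 3.81, 3.35 and 3.75 in Ifnar1-KO cells. In mature cells Klra5 lay at 2.95 to 3.32 on the 6 arrays, at background. The test of whether the genotype difference itself differed between the stages called 0 genes in limma (0%; smallest adjusted p = 0.837), and 858 had an unadjusted p under 0.05 (4.47%). No gene's difference is therefore shown to belong to the mature stage. The 20 ranked genes were picked by the mature difference, which is part of this test. Of them 10 higher and 8 lower ones had an unadjusted p under 0.05 in it, which is no independent result. Ifnar1-KO against GF in mature cells, a difference that no CTRL array enters, called 0 genes in limma as well (smallest adjusted p = 0.173), and 813 had an unadjusted p under 0.05 (4.24%). In it Adgre5 differed by 0.79, Gpc1 by -0.42, Ptpn22 by 1.32 and Ifi27l2a by -0.87, with unadjusted p of 1.78e-05, 0.000143, 5.2e-05 and 0.000138. In mature cells Ifi27l2a, Adgre5 and Gpc1 therefore read lower, higher and lower against either wild-type group on every array. These genes were named with their difference from CTRL on the same Ifnar1-KO arrays known, and CTRL arrays enter the spread per gene. The comparison with GF is therefore no independent result. The GF arrays share their wild-type genotype with CTRL but not the housing, and the comparisons of Ifnar1-KO and of GF with CTRL share the CTRL arrays.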

How the data were processed

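RNA of sorted cells was extracted with a Qiagen RNeasy micro kit, amplified with NuGEN kits and hybridised to Affymetrix arrays, per the labels. The deposited values are log2 intensities that the authors made by RMA with the oligo package, per the submitters' processing notes; software versions, the genome build and the set of arrays that entered 1 normalisation are not given in the sources. Values were used as deposited. No read depth exists for arrays, and 3 arrays per group limit the precision.

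The table held 35556 probesets, of which 21789 had 1 gene symbol, 1621 several and 12146 none in the platform annotation. The 999 genes with several probesets were read from the one with the highest mean over 18 arrays. No filter on level was set. Of 19938 genes 19919 matched the RefSeq gene table, and 751 on X or Y were left out of counts after the fit.

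One mean per group was fitted over all 18 arrays with limma 3.58.1 (statmod 1.5.0, R 4.3.3), with 12 residual degrees of freedom and 14.4 after eBayes. A gene was called at a Benjamini-Hochberg adjusted p under 0.05 over all 19938 genes; unadjusted p-values are from the same fits and two-sided. Intervals are at 95%. Functions were tested on simulated data. Genes were named by rule: the 10 per direction with the smallest p (without predicted genes, clones and small RNAs), the genes given with the comparison (Ifi27l2a, Adgre5, Gpc1), Ifnar1, the sort genes, and the members of each list with the largest differences or, for interferon lists, an unadjusted p under 0.05. Ifit1, Rsad2, Usp18, Stat2, Oas1a, Cxcl10, H2-Aa, H2-Ab1, Ifnar2, Klra5, Eif2s3y and Xist were named outside it. The comparison, rule and lists were chosen with earlier results of these data known.

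Same-numbered Ifnar1-KO and CTRL arrays did not vary together (correlations of deviations -0.274, -0.160 and -0.058), so no block was used. Alternatives were centring, a filter on level, other probeset rules, fewer arrays, an intensity trend, array weights, a replicate block, the trailing r in some array titles, autosomal genes alone and leaving out each array. Those chosen after seeing the data were leaving out both Ifnar1-KO replicate 2 arrays, the thymocyte level as covariate, all probesets, and the average over stages (block correlation 0.149). Figures were drawn with matplotlib 3.10.9 (Python 3.11.15, pandas 2.3.3, numpy 2.4.6).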

Additional observations from a re-analysis of the deposited data

Results flagged for a closer look

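Eif2s3y, a Y-linked gene outside the comparison, read 3.88 higher on the log2 scale in Ifnar1-KO than in CTRL mature cells. It passed limma's adjusted test. Probesets without a gene symbol were also outside the comparison. They were not placed on a chromosome, so any on X or Y were not left out. Probeset 10344152 differed by -1.43 and probeset 10608138 by 2.88, and both passed limma's adjusted test over all probesets, where 399 of 12146 symbol-less probesets had an unadjusted p under 0.05. Of 1621 probesets with several symbols 0 passed limma and 32 had an unadjusted p under 0.05.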

How the results depend on the processing

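Against 2 calls in the fit reported, 1 gene was called with centred arrays (Gpc1), 1 among genes at or above the median level (Ptpn22) and 4 with array weights (Adgre5, Gpc1, Ptpn22 and Ifi27l2a). Counts of 0 followed from fitting the 6 arrays compared, the 9 CCR7+ arrays, an intensity trend, the trailing r as covariate, autosomal adjustment or the thymocyte covariate. The replicate block as a fixed term called 0, and the block with an estimated correlation kept both calls. Leaving out 1 array gave 0 to 6 calls: 6 without Ifnar1-KO replicate 1 (Adgre5, Capg, Ccnb2, Fndc10, Gpc1 and Pclaf), 1 without CTRL replicate 1 (Abca17) and 0 otherwise. Without both Ifnar1-KO replicate 2 arrays Ifi27l2a and Ecm1 passed (adjusted p = 0.044 each, limma). The 563 genes at an unadjusted p under 0.05 became 276 at or above the median level, 952 with array weights, 997 over all probesets and 470 to 1019 without 1 array. The interaction gave 0 calls to 0 calls without 1 array. Ifnar1-KO minus GF gave 5 calls with array weights, 2 without both replicate 2 arrays, 1 with the thymocyte covariate and 0 to 1 without 1 array. The average over stages gave 2 with a trend (Ifi27l2a and Klra5) and 1 to 1 without 1 array. The sign turned without 1 array for Kit (-0.18 to 0.68) and Xcr1 (-0.27 to 1.46) through Ifnar1-KO replicate 3, Itgam (-0.029 to 0.069) through CTRL replicate 3 and Sirpa (-0.39 to 0.11) through CTRL replicate 1 or Ifnar1-KO replicate 2, and for Sirpa (0.098) without both replicate 2 arrays; none of the 20 ranked genes turned. The median of the type I list ran from -0.03 to 0.35 without 1 array. Causes were not tested beyond the smaller number of arrays or genes. Readings near background limit Capg, Twnk, Abca17 and Tmem159.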

Other observations

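Genes of oxidative phosphorylation lay slightly higher in Ifnar1-KO than in CTRL mature cells: of 28 measured, 25 differed above 0 and 3 below, with a median of 0.09. Their median was 0.15 for GF minus CTRL and -0.03 for Ifnar1-KO minus GF, so the lean was not particular to Ifnar1-KO. At an unadjusted p under 0.05, 2 were higher (1.61% of all genes were), and 0 passed limma's adjusted test. Without Ifnar1-KO replicate 2 the counts were 14 and 14. Chemokines and cytokines were split, with 17 of 35 higher and 18 lower. Ribosomal protein, cholesterol and immediate early genes had medians of 0.01, 0.06 and -0.02. Markers of B cells, plasmacytoid DCs, macrophages with CD172a+ DCs, thymic epithelium and red cells had medians of 0.01, 0.10, -0.02, -0.03 and -0.03.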
